A study of Mus musculus with 2 samples.

Results

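The genes examined are 9 genes of the MAP kinase cascades, Ksr1, Map3k8, Map2k1, Map2k3, Mapk3, Mapk8, Mapk9, Mapk14 and Mapkapk2, out of 21883 protein-coding genes in the RefSeq annotation of mm10. They were chosen by name with the peak values in view: Ksr1 was selected on the high fold of a peak present in the R848 list only, so that peak is given as a description. All peaks with any base inside a gene or within 20 kb on either side were taken. The protein mapped was KAT8, a MYST-family lysine acetyltransferase, by CUT&Tag, in which an antibody guides a transposase to cut and tag DNA around its target. The cells were macrophages derived from the bone marrow of wild-type mice in medium containing M-CSF at 20 ng/ml. They were left untreated (1 library) or given R848, an agonist of the endosomal receptor TLR7, at 100 ng/ml for 2 h (1 library). The labels give no strain, age or number of animals. With 1 library per group there is no replicate error, and no difference between the libraries was tested.

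MAP kinase cascades are relays in which a MAP3K phosphorylates a MAP2K, which phosphorylates a MAP kinase. In macrophages, Toll-like receptors signal through the ERK, JNK and p38 arms, which control the transcription, mRNA stability and translation of inflammatory genes. In the ERK arm, Map3k8 encodes TPL2, the MAP3K that links Toll-like receptors to MEK1, Map2k1 encodes MEK1, Mapk3 encodes ERK1, and Ksr1 encodes a scaffold that brings RAF, MEK and ERK together. Mapk8 and Mapk9 encode the kinases JNK1 and JNK2. In the p38 arm, Map2k3 encodes the activating kinase MKK3, Mapk14 encodes p38α, the main p38 kinase of macrophages, and Mapkapk2 encodes MK2, a kinase that p38 activates and that stabilises cytokine mRNAs.

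The promoters of 6 of these genes are shown because the results turn on them: 4 carried a peak in both libraries and those of Mapk14 and Ksr1 carried none. Each is the RefSeq sequence (GRCm38.p6) from 250 bases before to 50 bases after a listed start, 5′ to 3′ on the gene's strand, with capitals for bases covered by peaks of both libraries. They lie at chr9:64253556-64253855 on the minus strand (Map2k1), chr14:33447109-33447408 on the minus strand (Mapk8), chr11:49846501-49846800 on the plus strand (Mapk9), chr11:60931804-60932103 on the plus strand (Map2k3), chr17:28691092-28691391 on the plus strand (Mapk14) and chr11:79146424-79146723 on the minus strand (Ksr1).
Map2k1: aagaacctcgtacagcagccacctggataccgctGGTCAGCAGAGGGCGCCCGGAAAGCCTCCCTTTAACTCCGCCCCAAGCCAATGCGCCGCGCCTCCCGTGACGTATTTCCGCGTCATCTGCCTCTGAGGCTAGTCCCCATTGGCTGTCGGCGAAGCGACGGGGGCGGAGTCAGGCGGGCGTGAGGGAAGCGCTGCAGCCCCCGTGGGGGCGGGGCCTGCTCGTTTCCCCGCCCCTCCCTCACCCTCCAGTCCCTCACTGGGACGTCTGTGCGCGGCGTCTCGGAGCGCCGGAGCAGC
Mapk8: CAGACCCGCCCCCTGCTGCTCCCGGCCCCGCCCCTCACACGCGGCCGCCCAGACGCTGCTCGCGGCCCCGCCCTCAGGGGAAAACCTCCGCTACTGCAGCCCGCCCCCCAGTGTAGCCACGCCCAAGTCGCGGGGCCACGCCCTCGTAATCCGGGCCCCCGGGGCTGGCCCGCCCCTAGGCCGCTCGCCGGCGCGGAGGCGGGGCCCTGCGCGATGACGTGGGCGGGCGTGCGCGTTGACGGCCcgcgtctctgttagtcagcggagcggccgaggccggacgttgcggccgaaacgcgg
Mapk9: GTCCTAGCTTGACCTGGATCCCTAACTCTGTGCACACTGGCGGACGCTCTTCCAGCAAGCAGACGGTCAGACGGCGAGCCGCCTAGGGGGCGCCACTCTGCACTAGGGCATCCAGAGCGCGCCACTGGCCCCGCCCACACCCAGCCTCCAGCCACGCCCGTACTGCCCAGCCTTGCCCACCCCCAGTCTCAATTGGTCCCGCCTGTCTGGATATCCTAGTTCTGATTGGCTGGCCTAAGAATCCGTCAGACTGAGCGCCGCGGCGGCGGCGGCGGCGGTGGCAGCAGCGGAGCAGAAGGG
Map2k3: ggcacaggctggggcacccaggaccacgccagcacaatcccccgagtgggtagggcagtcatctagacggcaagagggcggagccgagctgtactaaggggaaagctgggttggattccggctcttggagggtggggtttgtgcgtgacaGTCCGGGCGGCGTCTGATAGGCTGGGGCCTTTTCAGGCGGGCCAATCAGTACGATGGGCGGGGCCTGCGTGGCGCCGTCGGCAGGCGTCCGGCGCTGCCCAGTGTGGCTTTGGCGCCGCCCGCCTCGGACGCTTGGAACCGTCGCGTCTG
Mapk14: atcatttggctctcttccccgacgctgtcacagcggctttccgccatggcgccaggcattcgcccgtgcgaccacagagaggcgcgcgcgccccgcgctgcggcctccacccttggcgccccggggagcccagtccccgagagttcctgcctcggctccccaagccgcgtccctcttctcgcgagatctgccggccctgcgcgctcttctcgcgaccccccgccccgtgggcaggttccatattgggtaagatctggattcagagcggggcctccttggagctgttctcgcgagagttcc
Ksr1: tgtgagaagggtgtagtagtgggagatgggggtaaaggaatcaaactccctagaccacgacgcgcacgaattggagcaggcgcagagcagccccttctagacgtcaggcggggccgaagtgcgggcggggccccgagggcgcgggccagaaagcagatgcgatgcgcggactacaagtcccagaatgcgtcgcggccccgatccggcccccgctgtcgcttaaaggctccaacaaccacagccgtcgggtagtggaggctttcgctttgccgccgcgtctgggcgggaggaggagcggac

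Of the 9 genes, 7 had a listed promoter; Map3k8 and Mapk3 had none, and for these 2 genes either end of the gene was used in place of the start. Bases covered by a peak of each library numbered all 300 at Mapk9, 266 at Map2k1, 244 at Mapk8, 150 at Map2k3 and 88 at Mapkapk2. All 7 first-listed promoters were GC-rich, between 63.3% (Mapkapk2) and 77.7% (Mapk8), against a median of 56.3% over 21262 promoters of protein-coding genes and 64.3% over promoters of genes with a start peak in both libraries. Mapk14, with 68.7% GC and 33 CpG dinucleotides, and Ksr1, with 65.3% and 31, had no peak there. The 5 promoters under a peak in both libraries ranged from 63.3% to 77.7% GC and from 18 to 45 CpG dinucleotides. The GC box GGGCGG, searched on both strands like the other motifs, occurred in all 7. It had 7 matches at Mapk8, 4 each at Map2k1 and Map2k3, 2 at Ksr1 and 1 each at Mapk9, Mapk14 and Mapkapk2. It occurred in 46.2% of all the promoters, and in 72.2% of promoters of genes with a start peak in both libraries. TGACGT, the core of the cyclic AMP response element, occurred once each at Map2k1, Mapk8 and Ksr1, and in 8.49% of all promoters. Its share was 12.6% among promoters of genes with a start peak in both libraries. No match to CGGAAG (ETS factors), TGANTCA (AP-1) or GGGNNTTCC (NF-kB) was found in these 7 windows, and 21.1%, 6.99% and 6.3% of all promoters hold them. Matches of different motifs may share bases. The second listed starts of Ksr1, Mapk8 and Mapk14 were left out of these counts. That of Ksr1, with 59.7% GC and 4 CpG dinucleotides, held 1 AP-1 match and 1 GC box. Those of Mapk8 and Mapk14 held no GC box and lay below the median GC of 56.3%. The 21262 promoters outnumber the 17491 genes with a listed start, so they include such further starts.

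The untreated list held 52001 peaks and the R848 list 44772, called separately in each library. Each peak has the authors' fold over local background and −log10 of its p- and q-values. These values rank peaks within a list and do not measure a change, because depth differed: the lowest background, solved from fold and p, was 3.37 overlapping fragments in the untreated and 2.62 in the R848 library, a ratio of 1.29. Few fragments stood under most peaks, with a median of 12 and 10 at the summit. Of 12 macrophage markers, 5 (41.7%, untreated) and 6 (50%, R848) had a gene-start peak, against 28.1% and 23.8% of all protein-coding genes, among them Cebpa, Cebpb and Cd68 in both, but Csf1r, Adgre1 and Itgam in neither. Of 12 lymphoid markers 0 and 1 had one, of 10 granulocyte and dendritic markers 2 and 0, and of 8 stromal and endothelial markers 0 and 0. With 12 genes and no measure of expression these counts are a weak check of the labelled cell type, and the part of other cells in the results was not tested.

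KAT8 peaks lay at the start, or for Map3k8 and Mapk3 at an end, of 7 of the 9 genes in both libraries. They were found at Map3k8, Map2k1 and Mapk3 of the ERK arm, at Mapk8 and Mapk9 of the JNK arm, and at Map2k3 and Mapkapk2 of the p38 arm. Ksr1 and Mapk14 had none within 1000 bp of a start. Among all protein-coding genes, 28.1% had such an untreated peak and 23.8% such an R848 peak. Both lists had one at 17.3% of genes, the untreated list alone at 10.9%, the R848 list alone at 6.47% and neither at 65.4%. At each of the 7 genes the peaks of the 2 lists overlapped, by 204 bp (Map2k3) to 468 bp (Map2k1), and their summits lay 3 bp (Map2k1) to 145 bp (Map3k8) apart. All 14 summits lay within 38 to 329 bp of the start or end.

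**Figure D1:**
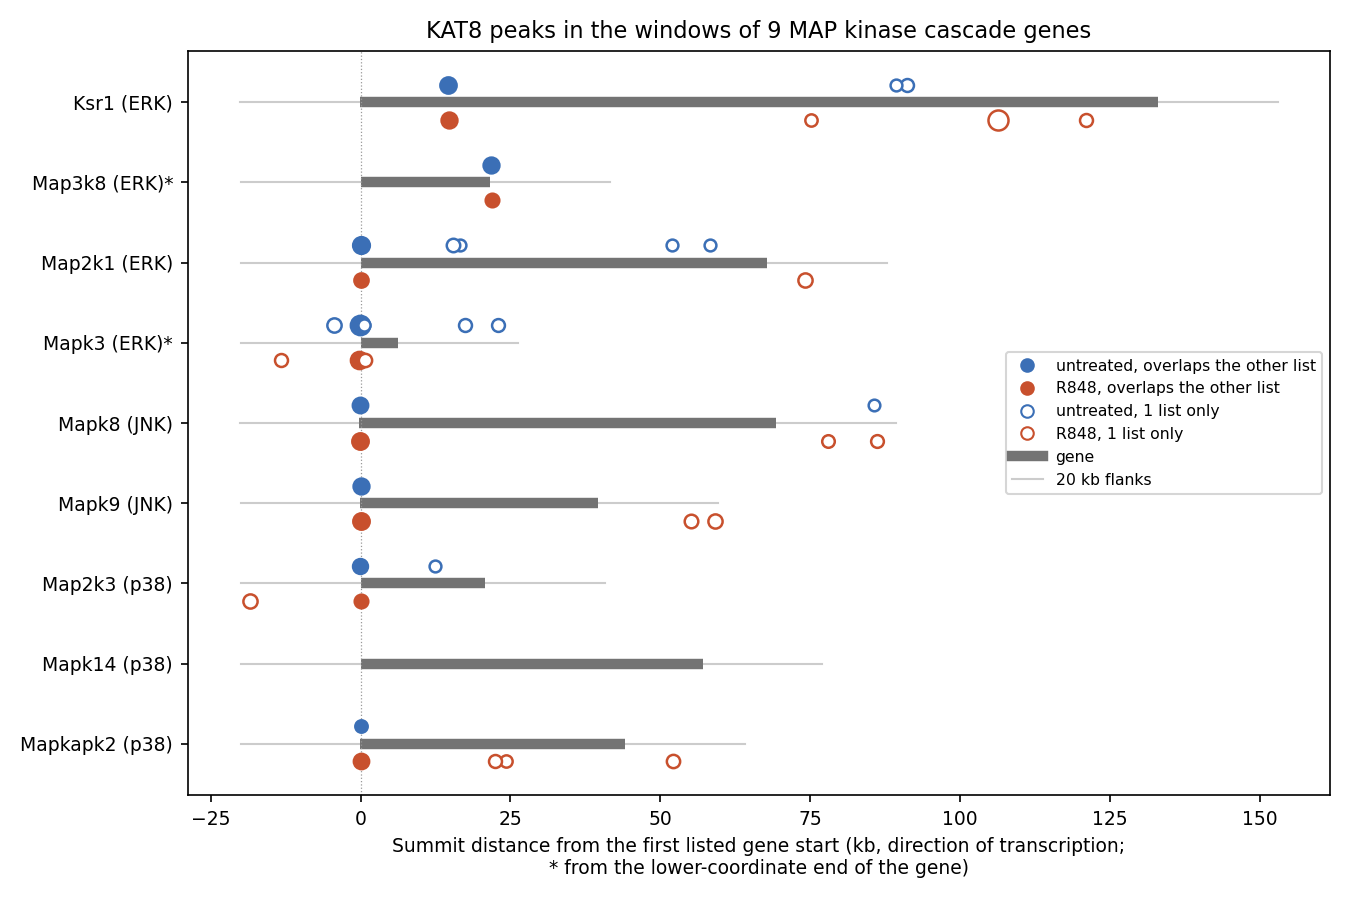
Summits of KAT8 peaks in the windows of the 9 genes, by distance in kb from the first listed start in the direction of transcription (Map3k8 and Mapk3, marked *, from the lower-coordinate end of the gene); filled points overlap a peak of the other list, open points do not, and point area grows with fold. Shared points stack at the start or end of 7 genes, Ksr1 has its shared pair inside the gene, and the Mapk14 row is empty.

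In the ERK arm, the strongest of these peaks was at Mapk3. It stood at chr7:126759224-126759792 in the untreated list, with 38 fragments at the summit over a background of 5.36 (fold 6.13, −log10 q 16.0), and at chr7:126759200-126759646 in the R848 list, with 21 fragments over 3.54 (fold 4.85, −log10 q 6.56). A fold of 6.13 was rank 922 of the untreated list and 4.85 rank 2137 of the R848 list. The background was higher around Mapk3 than at the other 6 start or end peaks, where it was 3.37 to 3.40 in the untreated and 2.62 to 2.64 in the R848 library.

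At Map2k1 the untreated peak, chr9:64253354-64253895, had 19 fragments at the summit (fold 4.58, −log10 q 5.51) and the R848 peak, chr9:64253173-64253821, had 11 (fold 3.32, −log10 q 1.51). At Map3k8 the untreated peak, chr18:4352939-4353286, had 17 fragments (fold 4.12, −log10 q 4.11) and the R848 peak, chr18:4353022-4353454, had 10 (fold 3.04, −log10 q 1.01). The summits of both peaks at Map3k8 lay between this gene and the long non-coding RNA gene 4833419F23Rik, whose nearer end is 594 bp away, so they cannot be assigned to either gene alone. The R848 peak at Map3k8 did not reach a q-value of 0.05 in its list.

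In the JNK arm the peaks of Mapk8 and Mapk9 were nearly equal in strength in each library. Mapk8 had 16 fragments in the untreated list (chr14:33447165-33447459, fold 3.89, −log10 q 3.47) and 15 in the R848 list (chr14:33447037-33447427, fold 4.42, −log10 q 4.04). Mapk9 had 17 (chr11:49846474-49846983, fold 4.12, −log10 q 4.11) and 15 (chr11:49846402-49846837, fold 4.42, −log10 q 4.04). The start of the long non-coding RNA gene Gm36507 lies 454 bp from that of Mapk9, so these peaks lie near both starts.

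In the p38 arm, Map2k3 had 15 fragments in the untreated list (chr11:60931859-60932157, fold 3.64, −log10 q 2.85) and 10 in the R848 list (chr11:60931954-60932338, fold 3.04, −log10 q 1.01). The R848 peak did not reach a q-value of 0.05, and the long non-coding RNA gene Map2k3os starts 187 bp from Map2k3. Mapkapk2 was the only one of the 7 genes with more fragments in the shallower R848 library, 13 (chr1:131097344-131097962, fold 3.85, −log10 q 2.69) against 10 (chr1:131097620-131097881, fold 2.52, −log10 q 0.462). Its untreated peak, also short of a q-value of 0.05, was among the weaker ones of its list, with 17.4% of peaks at a lower fold.

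Scaled by the ratio of the backgrounds, the R848 summit counts came to 12.9 at Map3k8, 14.2 at Map2k1, 27.0 at Mapk3 and 12.9 at Map2k3, below the untreated counts of 17, 19, 38 and 15. They came to 19.3 at Mapk8, 19.3 at Mapk9 and 16.7 at Mapkapk2, above the untreated counts of 16, 17 and 10. The scale was the ratio of the lowest backgrounds, 1.29. At Mapk3 the local backgrounds differed by more than this ratio, 5.36 (untreated) against 3.54 (R848), and scaling to them was not done. The widest gap in absolute counts, at Mapk3, set 26.9 to 52.2 (untreated) against 16.7 to 41.3 (R848, scaled). These are 95% exact Poisson intervals, which cover counting error only and not the spread between libraries, so a difference in occupancy was not tested at any of these starts or ends.

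**Figure D2:**
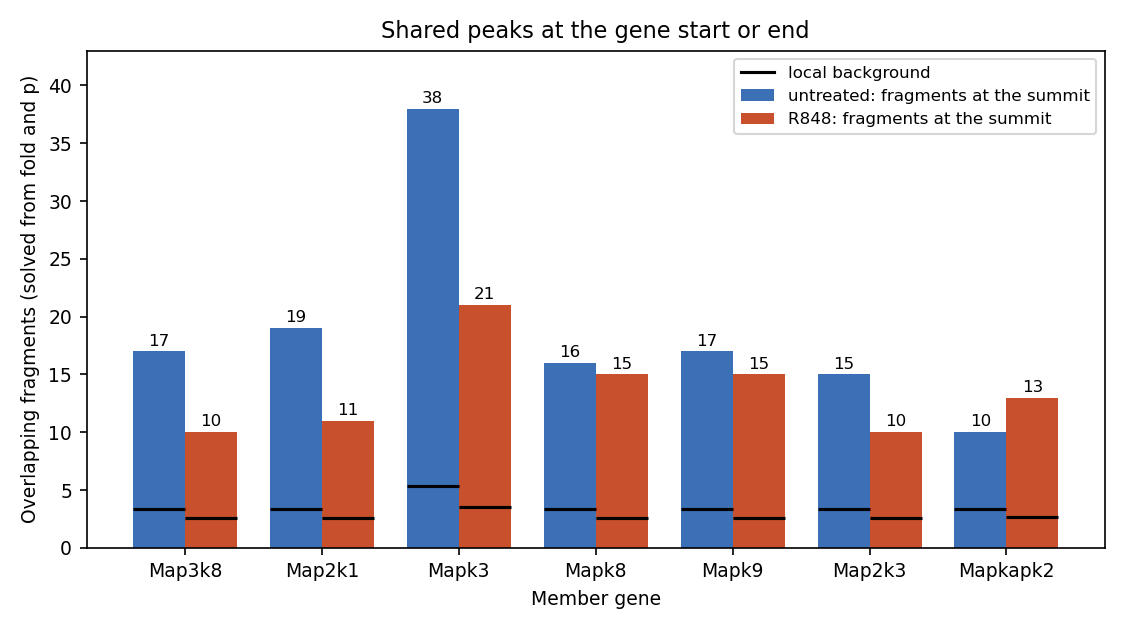
Overlapping fragments at the summit of the shared start or end peak of each of 7 genes (bars, unscaled; untreated and R848, 1 library each), with the local background as a black line. Mapk3 stands highest in both libraries (38 and 21), and Mapkapk2 alone has the taller R848 bar (13 against 10).

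Ksr1 differed from these 7 genes in the position of its peaks. The gene spans chr11:79013440-79146533 on the minus strand with listed starts at 79146473 and 79059836, and its peaks, 3 untreated and 4 R848, all lay inside it and more than 2 kb from either start. Whether they are exonic or intronic was not analysed here. A single pair was shared: chr11:79131749-79131970 in the untreated list (18 fragments, fold 4.35, −log10 q 4.8) and chr11:79131722-79131948 in the R848 list (14 fragments, fold 4.14, −log10 q 3.34), about 14.6 kb downstream of the first start. Both peaks were narrow, 222 and 227 bp, and overlapped over 200 bp.

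The strongest peak at Ksr1, and the reason this gene was listed, was in the R848 list only. It lay at chr11:79039956-79040240, 106.4 kb downstream of the first listed start and 19.7 kb downstream of the second, was 285 bp wide and had 24 fragments at the summit over a background of 2.78 (fold 6.61, −log10 q 11.2). It ranked 751 by fold among all 44772 R848 peaks, and first by fold and by q among the 28736 that overlapped no untreated peak. The next highest −log10 q among these was 9.84. Of the 913 R848 peaks with a −log10 q at least as high, the other 912 overlapped an untreated peak. That count follows from the first rank by q and is no further evidence. The nearest untreated peak was 15.1 kb away. Without a second library per group, chance, the library and the treatment cannot be told apart for this peak. The other peaks of 1 list only at Ksr1 were weak, 2 untreated of fold 2.75 and 2.29 and 2 R848 of fold 2.76 and 2.49, all with −log10 q of 0.831 or less. Of these, the R848 peak at chr11:79025349-79025548 also lay inside the long non-coding RNA gene Gm11201.

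Mapk14, at chr17:28691342-28748405, had no peak in either list over its window of 97.1 kb. Of all protein-coding gene windows, 16.8% had no peak in either list, and of the 4385 windows at least as long as that of Mapk14, 5.34% had none. The nearest peaks above the gene lay 52.4 kb away in both lists and were a shared pair at the start of Brpf3, which encodes a subunit of MYST acetyltransferase complexes (fold 3.20 untreated and 4.70 R848). Below the gene the nearest were 115 kb away in the untreated and 137 kb in the R848 list. Absence from both lists says that no stretch passed the caller's threshold at this depth, not that KAT8 was absent.

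In all, the 9 windows, 820 kb together, held 20 untreated and 22 R848 peaks, or 2.44 and 2.68 per 100 kb, against 2.27 and 1.97 summed over all protein-coding gene windows. At least 1 peak was present in 8 of the 9 windows in each list, against 74.4% and 69.7% of all windows. These shares are not matched for length, as the median window was 84.2 kb for the 9 genes and 57.2 kb for all. Of all windows at least as long as that of Mapk14, 5.34% had no peak in either list. The 4 ERK arm windows held 14 untreated and 10 R848 peaks (3.6 and 2.57 per 100 kb), the 2 JNK windows 3 and 6 (1.59 and 3.17) and the 3 p38 windows 3 and 6 (1.24 and 2.48). The higher untreated count of the ERK arm came from Map2k1 and Mapk3, with 5 peaks each, 7 of these 10 with a −log10 q of 1.26 or less. With lists cut to equal length, 10 untreated ERK peaks were left, equal to the R848 count, and 2 each in the JNK and p38 arms. Scaling untreated counts to the R848 background gave the same untreated counts. With scaled counts rounded to whole fragments, 14 untreated ERK peaks stayed. The arm counts rest on few, mostly weak peaks, and the arms were not shown to differ.

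Shared peaks were mostly those at gene starts. Of the 20 untreated peaks 8 overlapped an R848 peak (95% exact binomial interval of the share 19.1% to 63.9%) and of the 22 R848 peaks 8 overlapped an untreated one (17.2% to 59.3%), near the 31.0% and 35.8% of all peaks of each list. At a start or end, 7 of 8 untreated and 7 of 8 R848 member peaks were shared, against 54.7% and 65.4% of all peaks at protein-coding gene starts. Away from the start or end of their own gene, 1 of 12 and 1 of 14 were shared, in both cases the Ksr1 pair. Of all peaks away from any protein-coding gene start, 27.9% and 32.1% were shared. The 2 definitions differ: 1 of the 12 and 4 of the 14, none of them shared, lay within 1 kb of a start or end of a neighbouring gene. By arm, 4 of 14 untreated and 4 of 10 R848 peaks were shared for ERK, 2 of 3 and 2 of 6 for JNK and 2 of 3 and 2 of 6 for p38.

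Strength and sharing went together as well. Of the 8 untreated member peaks with −log10 q of at least 2, 7 were shared, and of the 6 such R848 peaks 5 were, against 66.2% and 69.4% of all peaks of that strength. The 2 exceptions were the R848 peak inside Ksr1 and an untreated peak 4.5 kb before the lower end of Mapk3 (chr7:126754908-126755482, 17 fragments, fold 3.36, −log10 q 2.75). Below that strength 1 of 12 untreated and 3 of 16 R848 peaks were shared, against 19.6% and 24.3%. Of the member peaks of 200 bp, the narrowest width in the lists, 0 of 4 untreated and 0 of 6 R848 were shared, against 10.4% and 13.7% of all peaks of that width, so these few peaks do not set the members apart.

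**Figure D3:**
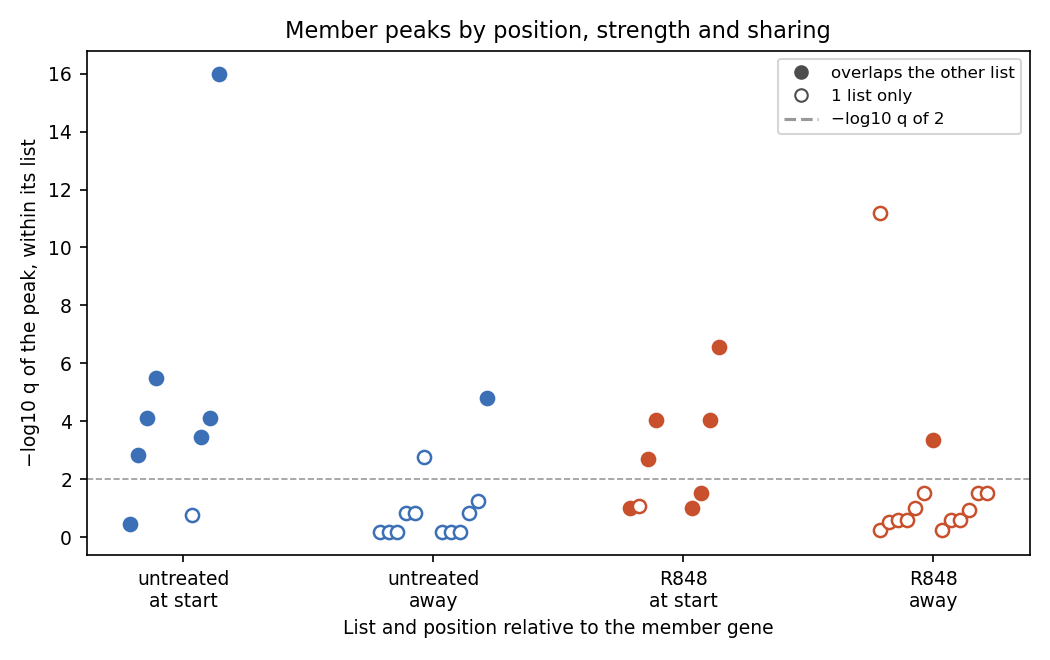
The −log10 q of every member peak by list and by position, at the start or end of the gene or away from it; filled points overlap a peak of the other list, and the dashed line marks 2. Filled points are mostly at starts, and the open point at 11.2 is the R848 peak inside Ksr1.

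Some peaks of 1 list only lay beside a peak of the other. Inside Mapk3, an untreated peak (chr7:126759947-126760146, fold 2.41) and an R848 peak (chr7:126760189-126760550, fold 2.89) were separated by 43 bp, and inside the neighbouring gene Arhgap22, in the Mapk8 window, another pair was separated by 140 bp (fold 2.23 untreated and 2.67 R848). Other peaks in the windows lay at the starts of neighbours. R848 peaks of fold 3.32 each stood 114 bp from the start of Snapc5, a snRNA transcription factor subunit, in the Map2k1 window and 107 bp from that of Natd1 in the Map2k3 window. Another R848 peak (fold 3.04) stood 149 bp from a start of Rasgef1c in the Mapk9 window, and an untreated peak (fold 2.75) 94 bp from that of Ypel3 in the Mapk3 window. In the Mapkapk2 window, 3 further R848 peaks had folds of 2.49 to 2.91 and no untreated counterpart within 20 kb. The weakest of these, chr1:131073591-131073790, had its summit 60 bp from a start or end of the gene Gm25549. The peaks nearest to the edge of a window were an R848 peak 19.3 kb from Mapk9 (fold 3.32), inside, and an untreated peak 26.4 kb from Ksr1 (fold 2.52), outside.

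Of 83 genes of the wider MAP kinase pathway, the 9 genes included, 46 (55.4%) had an untreated gene-start peak and 51 (61.4%) an R848 one, against 28.1% and 23.8% of all protein-coding genes. Both lists had one at 40 genes, the untreated list alone at 6, the R848 list alone at 11 and neither at 26. Over all protein-coding genes, these 4 shares were 17.3%, 10.9%, 6.47% and 65.4%. Without the 9 genes the counts were 39 and 44 of 74. A start was listed for 71 of the 83, and either end of the gene counted for the others, Tab1 among them. Where starts were replaced by either end of the gene, 43 untreated and 42 R848 of the 83 had a peak, and with a q-value of 0.05 or less in both lists 36 and 34, so the higher R848 count depends on these choices. The median fold of the strongest start peak was 3.66 and 3.40, against 3.20 and 3.32 over all protein-coding genes with one. No control or accessibility library was analysed, so KAT8 binding and cutting of accessible DNA cannot be told apart in these shares.

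**Figure D4:**
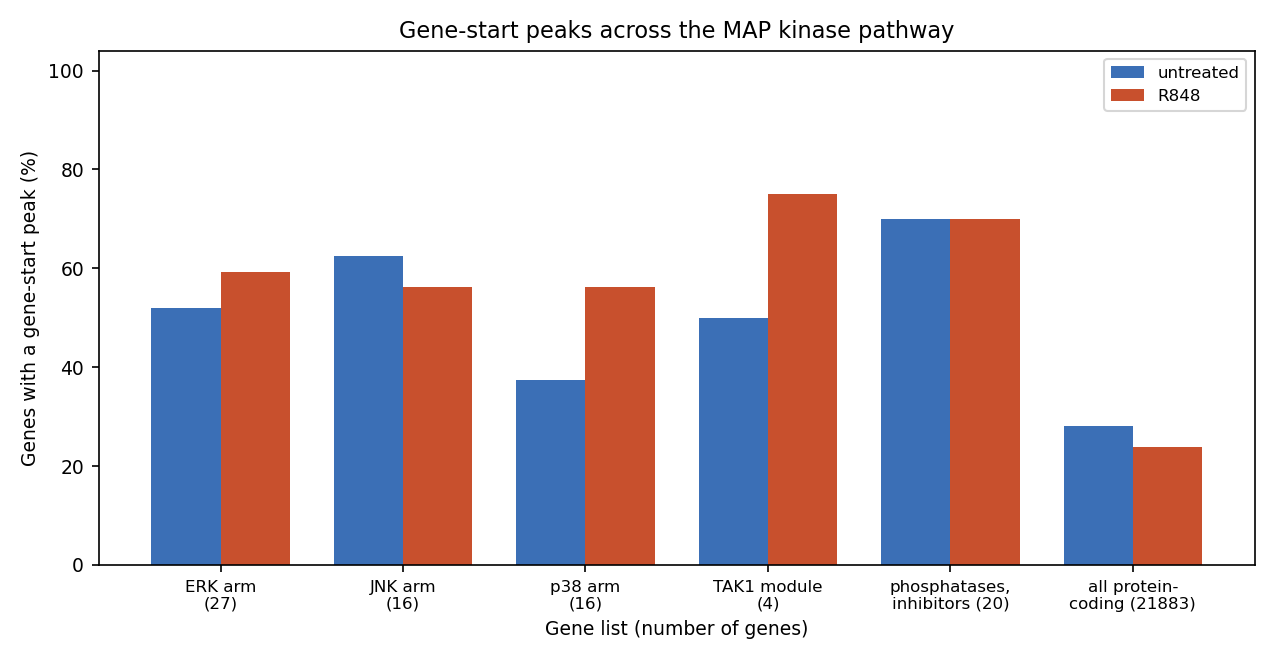
Share of genes with a peak within 1000 bp of the gene start, in each list of MAP kinase pathway genes and among all 21883 protein-coding genes; bars are 1 library each, and both bars of a list count the same genes. The share runs from 37.5% (untreated, p38 arm) to 75% (R848, the 4 genes of the TAK1 module) in the pathway lists, against 28.1% and 23.8% of all genes.

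Among the other 23 ERK arm genes, 11 (47.8%) had a start peak in the untreated and 13 (56.5%) in the R848 list, against the 28.1% and 23.8% of all protein-coding genes. Mknk2, a kinase that phosphorylates the cap-binding protein eIF4E, had the strongest (fold 8.46 untreated and 8.27 R848), followed by the ribosomal S6 kinase gene Rps6ka2 (7.33 and 6.60) and Shoc2, a scaffold that promotes RAF activation (5.04 and 5.53). Tnip2, a partner of TPL2 (3.89), and the adaptor gene Grb2 (2.98) had one in the untreated list only. Elk4, a target transcription factor, and Sos1, a RAS activator (3.04 each), were among 4 with one in the R848 list only. The peaks of Grb2 (−log10 q 1.26), Elk4 and Sos1 (1.01 each) did not reach a q-value of 0.05. That of Tnip2 did (3.47).

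Among the other 14 JNK arm genes, 8 (57.1%) and 7 (50%) had a start peak, with Spag9, a JNK scaffold (5.95 and 3.32), Map3k12 (5.77 and 5.50), Map3k1 (5.24 and 4.42), both MAP3Ks, and the transcription factor gene Atf2 (3.43 and 4.14) in both lists, and Map3k10 (2.75) in the untreated list only. Among the other 13 p38 arm genes, 4 (30.8%) and 7 (53.8%) had one, the untreated share being near the 28.1% of all protein-coding genes. The kinase genes Rps6ka5 (7.55 and 6.48), Map3k3 (6.18 and 7.53) and Mapkapk3 (3.66 and 3.59) had one in both lists, and Map3k4 (3.20) in the untreated list only. Mef2c, a transcription factor that p38 phosphorylates (3.59), Map3k6 (3.16) and Map3k5, which encodes ASK1 (2.76), were among 4 with one in the R848 list only. The peaks of Map3k10 (−log10 q 0.831, untreated) and Map3k5 (0.581, R848) did not reach a q-value of 0.05. Those of Map3k4 (1.75, untreated), Mef2c (2.07, R848) and Map3k6 (1.36, R848) did.

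Of the TAK1 module, which receives the Toll-like receptor signal, Tab2 and Map3k7, which encodes TAK1, had start peaks in both lists. The folds were 3.66 and 4.70 at Tab2, whose strongest peaks lay at different positions, and 2.29 and 2.76 at Map3k7. Neither Map3k7 peak reached a q-value of 0.05, with −log10 q of 0.163 (untreated) and 0.581 (R848). Tab1 (fold 3.32, −log10 q 1.51) had a start peak in the R848 list only and Tab3 in neither. Among 20 phosphatases and inhibitors, 14 (70%) had one in each list, against 28.1% (untreated) and 23.8% (R848) of all protein-coding genes. Dusp14 (5.26 and 3.04), Dusp1 (3.46 and 5.0) and Dusp2 (4.51 and 4.66), MAP kinase phosphatase genes, and Rasa1, a RAS GTPase activator (4.35 and 4.70), had one in both. Dusp6 (3.43), an ERK phosphatase gene, and Dusp8 (2.90) had an untreated start peak alone. Spred2, an inhibitor of the RAS pathway (4.42), and Dusp16 (4.14) had an R848 start peak alone. The R848 peak of Dusp14 (−log10 q 1.01) did not reach a q-value of 0.05, and the untreated peak of Dusp8 (1.3) lay near it. Those of Dusp6 (2.28), Spred2 (4.04) and Dusp16 (3.34) reached it. Of all protein-coding genes, 10.9% had a start peak in the untreated list alone and 6.47% in the R848 list alone.

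Counted by tier, a grouping chosen after the values were seen, none of the 4 p38 kinase genes (Mapk11, Mapk12, Mapk13 and Mapk14) had a start peak in either list. Of the 3 JNK kinase genes, Mapk8 and Mapk9 had one in both lists and Mapk10 in neither. Of 6 MAP2K genes 4 had one in both lists and 2 in neither, of 15 MAP3K and RAF genes 8 in both, 2 in each list only and 3 in neither, and of 12 DUSP genes 8 in both and 1 in neither. The counts of 0 for p38 kinases rest on 4 genes, and 65.4% of all protein-coding genes had no start peak in either list. A start peak in both lists stood at 17.3% of all protein-coding genes.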

How the data were processed

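KAT8 CUT&Tag peak lists of untreated and R848-treated macrophages were used, 1 library per group, grouped by the treatment label. MACS2 2.2.7.1, Bowtie 0.12.8, DiffBind and genome build mm10 stand in the submitters' processing notes without roles. Settings, and whether a control library was used, were not given in the sources used here. Per peak, the authors deposited a score (10 times −log10 p), a ratio (fold over local background), −log10 of the p-value and of the q-value, and the summit offset. The lists reach down to a −log10 p of 2.01, so many peaks are weak and presence in 1 list can hinge on the threshold; 36.3% and 41.1% had a q-value of 0.05 or less.

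Summit fragment counts and backgrounds were solved from the deposited fold and p, and came out whole within 0.05 for 99.8% of peaks of each list and for all 42 member peaks. Peaks were shared where they overlapped by at least 1 bp. Genes and starts came from RefSeq tables of GRCm38.p6, the assembly of mm10; a start was listed for 17491 of 21883 protein-coding genes, and either end was used for the others. A start peak has a base within 1000 bp. All 83 pathway genes were found. Intervals are exact (Clopper-Pearson or Poisson) and cover counting error only. The interval code was checked against bedtools 2.31.1 and, with the solver, tested on simulated data (python 3.11.15, scipy 1.17.1). Files gave no read totals, and no test between groups was possible. Peaks were not filtered for repeats or mappability.

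The 9 genes, the lists and the naming rule were chosen with earlier results of these data known. All 9 genes are named; of each other pathway list, up to 4 genes with start peaks in both lists and up to 3 per direction with one in 1 list only, by falling fold. Alternatives varied the flank, window, overlap, threshold, list length and depth scaling; 1, with rounded scaled counts, was added after seeing the data. Single values of some listed genes are not reported here.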

Additional observations from a re-analysis of the deposited data

How the results depend on the processing

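Of 110 values recomputed under 15 alternatives, 86 stayed within 1.5 times the reported count and 24 did not. No paired analysis was possible because each group has 1 library and no replicate numbers. With no flank the R848 windows held 13 peaks in all and 2 in the JNK arm, and with 5 kb 14 and 2; with 50 kb the untreated p38 windows held 6. With a q-value of 0.05 or less in both lists, untreated windows held 8 peaks (ERK 5, p38 1) and R848 windows 10 (ERK 5, JNK 3, p38 2), and 5 peaks of each list were shared. With −log10 q of at least 5, 2 untreated and 2 R848 peaks were left, all in the ERK arm (2 and 2; JNK 0 and 0; p38 0 and 0), and 2 and 1 genes had a start peak. Genes with a start peak otherwise numbered 6 to 8 in the untreated list and 5 to 7 in the R848 list. Scaling untreated counts to the R848 background left 14 untreated peaks, or 20 with counts rounded to whole fragments (an alternative chosen after seeing the data). Pathway genes with a start peak ranged from 36 to 47 (untreated) and 34 to 52 (R848). Depth limits most single peaks, with 8 to 38 fragments at their summits.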
